A study of Homo sapiens with 59 samples.

Results

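Hepcidin (HAMP) and 9 further genes of the BMP-SMAD pathway (ID1, ID2, ID3, SMAD6, SMAD7, SMAD9, BAMBI, ATOH8 and BMP6) were followed through 20 treatment groups of HepG2 cells, a human hepatocellular carcinoma line. They are 10 of the 60675 genes in the count table and were taken by symbol. The study treated the cells for 24 h with water extracts of 6 herbal drugs at 3 doses each, with 10 uM wortmannin (an inhibitor of phosphoinositide 3-kinases, the positive control) or with vehicle. Zingiberis Rhizoma Recens (fresh ginger by its drug name), Zingiberis Rhizoma (dried ginger by its drug name), Pinelliae Tuber, Scutellariae Radix (skullcap root) and Zizyphi Fructus (jujube) were given at 500, 100 and 20 ug/mL, and Coptidis Rhizoma (goldthread) at 210, 42 and 8.4 ug/mL. The series text sets a top dose below 500 ug/mL where an extract inhibited the cells at a lower concentration. Vehicle was DMSO, at 0.1% by the labels of the samples and 2% by the text of the series. No DMSO share was found in the labels of the extract and wortmannin libraries. Any difference in DMSO therefore cannot be told apart from the treatment in a comparison with vehicle. Each group held 3 libraries, except Pinelliae Tuber 20 ug/mL with 2. All came from the single line HepG2, and nothing in the labels says that the libraries of a group came from separate cultures, so the p-values measure the spread between these libraries, which may be technical.

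Bone morphogenetic proteins (BMPs) bind type I and type II receptors at the cell surface, and the receptors phosphorylate SMAD1, SMAD5 and SMAD9 (also called SMAD8), which enter the nucleus with SMAD4 and switch on target genes. In hepatocytes the best known target is HAMP, whose product hepcidin is a hormone that makes ferroportin, the cellular iron exporter, disappear from the cell surface. In the liver, BMP6 made by endothelial cells reports iron stores to hepatocytes, hemojuvelin (HJV) acts as a co-receptor, and interleukin-6 acts on HAMP through STAT3. Other targets feed back on the pathway: SMAD6 and SMAD7 block the receptors, and BAMBI is a decoy receptor.

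Summed counts per library ran from 21582593 to 31392071 (median 25834177), and 16641 genes passed the filter on low counts. Levels are CPM (counts divided by the library's size and scaled to a common total) on TMM-scaled library sizes, changes are log2 values from an edgeR quasi-likelihood fit of all 59 libraries, and a gene counts as called when its p, adjusted by Benjamini-Hochberg within the comparison, is under 0.05. The line carried hepatocyte genes: ALB, albumin, stood at 3146 ± 82.4 CPM per kilobase of exon in vehicle (SD, n = 3), and 9 of 9 hepatocyte markers were above 20 on that scale. Of 5 leukocyte markers PTPRC, CD163, MARCO and CD3E were at 0 there and CD68, which other cells also express, at 13.3 CPM per kilobase. Of 6 endothelial markers KDR was at 0 and the rest lay between 0.00568 (STAB2) and 0.379 (PECAM1). Of 6 stellate markers DCN was at 0, ACTA2, a smooth muscle actin, at 17.2, PDGFRB at 1.32 and the rest at or below 0.0752 (COL1A1). Titles carry a code whose first number is 1 in the vehicle and wortmannin libraries and 2 in those of the gingers. It is 3 in the Scutellariae Radix and Pinelliae Tuber libraries and 4 in the Zizyphi Fructus and Coptidis Rhizoma libraries. Vehicle codes alone carry a letter A before the number, and every title also reads BatchA. The meaning of the number and of the letter is not stated. An extract and the number therefore cannot be told apart in a comparison with vehicle, whereas the top and bottom dose of an extract share the number. In 3 groups a library stood apart from the rest of its group, with a mean chi-square per gene of 12.6 or more against both others, namely Zizyphi Fructus 20 ug/mL (replicate 1), Pinelliae Tuber 100 ug/mL (replicate 3) and dried ginger 500 ug/mL (replicate 1). Some results that rest on them are given with and without them. The rest are given with all libraries only. Among the other groups, replicate 3 of Coptidis Rhizoma 8.4 ug/mL (8.48 and 12) and replicate 1 of Scutellariae Radix 20 ug/mL (7.67 and 7.13) came next. Without the former, the 10 members stayed on the same side of the threshold in both comparisons of that group.

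HAMP (ENSG00000105697) lies on chromosome 19, 35280716 to 35285143 on the plus strand (GRCh38, GENCODE 29). Promoter stretches of SMAD6 and BAMBI are shown because each holds a sequence known as a SMAD element, through which BMP signals act on target genes. They are RefSeq sequences (GRCh38.p14): SMAD6 at chr15:66702136-66702235, plus strand, with the palindromic element GTCTAGAC in capitals, and BAMBI at chr10:28677271-28677345, plus strand, with the GC-rich element GGCGCC in capitals. The RefSeq start of both genes lies downstream of the gene start that GENCODE 29 gives, so GTCTAGAC and the last GGCGCC of the stretches shown span the latter.
SMAD6: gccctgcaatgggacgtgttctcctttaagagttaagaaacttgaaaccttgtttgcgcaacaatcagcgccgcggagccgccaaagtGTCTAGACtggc
BAMBI: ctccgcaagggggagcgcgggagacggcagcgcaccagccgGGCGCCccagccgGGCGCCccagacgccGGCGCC
In the 250 bases before the start, GGCGCC occurred in 16.4% of 35116 RefSeq promoters and GTCTAGAC in 0.182% (both are their own reverse complement). The short SMAD element CAGAC, searched on both strands, occurred in 38%. Of the 9 members other than HAMP, 1 (BAMBI) held GGCGCC, 1 (SMAD6) held GTCTAGAC and 3 (BAMBI, ID3 and SMAD7) held CAGAC. All 10 members matched a RefSeq promoter by symbol, with 12 promoters in all since SMAD7 has 3. A match is a description of letters and not a measured binding site.

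HAMP was lower than in vehicle at the top dose of 5 of the 6 extracts, with between 8.32% and 46.6% of the vehicle level left in the fit, and Coptidis Rhizoma was the exception. In vehicle the 3 libraries held 68.2, 66.0 and 63.9 CPM (66.0 ± 2.2, SD, n = 3). Scutellariae Radix at 500 ug/mL held 5.22, 6.12 and 5.16 CPM, the lowest 3 of all 59 libraries, from 128 to 148 counts each. The log2 change was -3.59 (SE 0.09, edgeR adjusted p = 2.67e-35), which left 8.32% of the vehicle level. In a bulk library, fewer cells expressing HAMP and less HAMP RNA per cell cannot be told apart.

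Both gingers gave a similar picture at 500 ug/mL. Zingiberis Rhizoma Recens held 20.5, 20.4 and 22.0 CPM (log2 change -1.65, SE 0.07, edgeR adjusted p = 4.86e-25). Zingiberis Rhizoma held 20.8, 14.9 and 17.1 CPM (log2 change -1.91, SE 0.07, edgeR adjusted p = 3.8e-27). The libraries of both lay below every vehicle library and overlapped each other, and the direct comparison of fresh with dried ginger gave a log2 difference of 0.26 (SE 0.08) that missed the threshold (edgeR adjusted p = 0.1). The highest of the dried-ginger libraries, replicate 1, is the one that stood apart. Without it the difference was 0.39 and was called (edgeR adjusted p = 0.00895), and the change of dried ginger against vehicle stayed called over all alternatives, between -2.05 and -1.80.

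Pinelliae Tuber 500 ug/mL held 23.7, 21.5 and 22.7 CPM (log2 change -1.54, SE 0.07, edgeR adjusted p = 4.1e-22). Zizyphi Fructus 500 ug/mL held 31.1, 31.3 and 29.9 CPM (log2 change -1.10, SE 0.07, edgeR adjusted p = 8e-17). Neither group overlapped vehicle. These 2 extracts changed few genes, and ordered by log2 change HAMP stood 51st from the lowest of 16641 genes under Pinelliae Tuber and 94th under Zizyphi Fructus. It stood 21st under Scutellariae Radix, 80th under dried ginger and 115th under fresh ginger.

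Along the dose series the mean of HAMP fell at each step from 20 to 500 ug/mL for those 5 extracts. At 100 ug/mL it was lower than in vehicle under fresh ginger (46.8 ± 2.1 CPM, n = 3, log2 change -0.50), dried ginger (37.1 ± 3.1 CPM, n = 3, -0.83) and Pinelliae Tuber (45.3 ± 2.6 CPM, n = 3, -0.55), all called. Without the Pinelliae Tuber library that stood apart the last change was -0.58. Under Scutellariae Radix 100 ug/mL the libraries held 53.7, 53.8 and 63.7 CPM, the log2 change was -0.21 (edgeR adjusted p = 0.0186), and the call ended without replicate 1 of vehicle (adjusted p = 0.0912), replicate 1 of the extract (0.135) or its replicate 2 (0.114). Zizyphi Fructus 100 ug/mL held 51.0, 57.5 and 57.1 CPM, all below vehicle, with a log2 change of -0.26 that was not called in the fit of all libraries (edgeR adjusted p = 0.0588). It was called by DESeq2 (adjusted p = 0.0286), without the filter (0.000202), in a fit of the groups compared alone (0.00842) and without the 3 libraries that stood apart (0.00812). At 20 ug/mL the fit of all libraries called no change of HAMP, though that of Pinelliae Tuber was called without the filter (adjusted p = 0.00647) and in a fit of the groups compared alone (0.00218). The log2 changes ran from -0.25 (Pinelliae Tuber) to 0.13 (Scutellariae Radix).

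Top against bottom dose, a comparison within one title number, gave HAMP log2 changes of -3.72 (SE 0.09) for Scutellariae Radix and -1.84 (SE 0.07) for dried ginger. They were -1.60 (SE 0.07) for fresh ginger, -1.29 (SE 0.08) for Pinelliae Tuber and -1.09 (SE 0.07) for Zizyphi Fructus. All 5 were called, with edgeR adjusted p between 5.13e-36 and 1.15e-16, and all stayed called under every alternative.

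Coptidis Rhizoma ran otherwise. Its libraries held 55.9, 53.3 and 54.9 CPM of HAMP at 8.4 ug/mL, then 51.9, 49.4 and 52.8 CPM at 42 ug/mL, then 64.4, 60.4 and 64.8 CPM at 210 ug/mL. The lower doses lay below vehicle (log2 changes -0.27 and -0.36, edgeR adjusted p = 0.00196 and 7.19e-06), and the top dose overlapped vehicle (-0.06, SE 0.06, adjusted p = 0.391). Top against bottom dose was 0.21 (SE 0.07, adjusted p = 0.00437). Wortmannin held 56.3, 57.7 and 52.5 CPM, below all vehicle libraries (log2 change -0.25, SE 0.06, edgeR adjusted p = 0.0017).

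**Figure D1:**
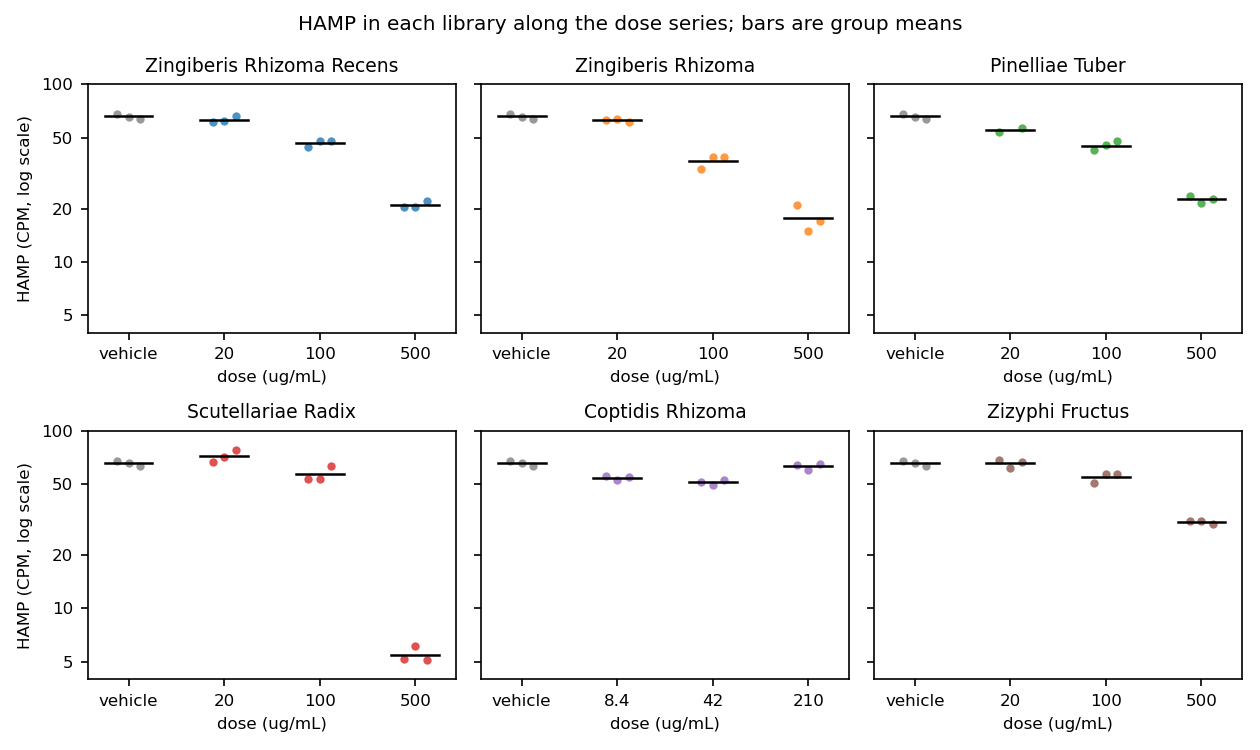
HAMP level (CPM, log scale) in each library of vehicle and of the 3 doses of each extract (ug/mL); points are libraries and bars are group means. Means fell from 66.0 CPM in vehicle to between 5.50 and 30.8 CPM at 500 ug/mL of 5 extracts, whereas Coptidis Rhizoma stayed between 51.4 and 63.2 CPM.

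Ordered by mean, the 20 groups formed a run of 11 in which each group's libraries overlapped the next, from Scutellariae Radix 20 ug/mL (72.2 ± 5.7 CPM, n = 3) and vehicle down to Coptidis Rhizoma 8.4 ug/mL (54.7 ± 1.3 CPM, n = 3). Below it, gaps without overlap followed Coptidis Rhizoma 8.4 and 42 ug/mL, Pinelliae Tuber 100 ug/mL, dried ginger 100 ug/mL, Zizyphi Fructus 500 ug/mL and dried ginger 500 ug/mL. Pinelliae Tuber, fresh ginger and dried ginger at 500 ug/mL (22.6, 21.0 and 17.6 CPM) each overlapped the next in that order. Over the 19 comparisons with vehicle, which share the vehicle libraries, HAMP was called lower in 12. Extracts were not tested against each other apart from the pair of gingers, whose HAMP difference missed the threshold in the fit of all libraries.

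ID1, ID2 and ID3 encode inhibitors of DNA binding, helix-loop-helix proteins that pair with and silence other helix-loop-helix factors, and they are standard readouts of BMP receptor activity. ID1 lies on chromosome 20 (31605283 to 31606515), ID2 on chromosome 2 (8678845 to 8684453) and ID3 on chromosome 1 (23557918 to 23559794). In vehicle they stood at 158 ± 2.3, 153 ± 2.9 and 59.9 ± 1.3 CPM (n = 3). Per kilobase of exon ID1 was at 128 and HAMP at 21.9 CPM per kilobase. That length joins all annotated exons of a gene, 1233 bases for ID1 and 3010 for HAMP. A transcript can be shorter, so the scale can understate a level and compares genes only roughly. ID2 overlaps the antisense gene ID2-AS1, and although the library kit marks strand the strand setting of the counting is not given in the sources used here, so reads of the pair may not be told apart.

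Scutellariae Radix 500 ug/mL lowered all 3, where 25.5% of all genes were called lower. ID1 held 60.8, 62.7 and 64.5 CPM (log2 change -1.34, SE 0.08), ID2 held 74.0, 71.5 and 74.8 CPM (-1.06, SE 0.05), and ID3 held 26.3, 26.1 and 25.3 CPM (-1.21, SE 0.07). These were the lowest levels of the 3 genes in any library. The edgeR adjusted p were 1.99e-20, 7.34e-25 and 1.52e-21.

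Pinelliae Tuber 500 ug/mL also lowered all 3, where 1.93% of all genes were called lower: the log2 changes were -0.48 for ID1, -0.52 for ID2 and -0.59 for ID3 (SE 0.05 to 0.07, edgeR adjusted p from 2.02e-11 to 2.88e-05). ID3, for example, held 39.7, 37.4 and 42.1 CPM against 58.8, 59.4 and 61.3 CPM in vehicle, with no overlap. Both gingers gave called decreases of all 3 at 500 ug/mL (22.5% of all genes were lower under the fresh and 20.9% under the dried form), from -0.25 (ID1, fresh ginger) to -0.58 (ID2, dried ginger). The libraries of fresh ginger spread for ID1 (118, 136 and 145 CPM), and its call ended without the lowest, replicate 1 (log2 change -0.17, edgeR adjusted p = 0.0748). Zizyphi Fructus 500 ug/mL lowered ID2 (-0.35) and ID3 (-0.41), where 1.53% of all genes were called lower. Its ID1 change was -0.18 (adjusted p = 0.179), with libraries at 148, 125 and 147 CPM that all lay below vehicle.

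Coptidis Rhizoma 210 ug/mL raised the 3 genes, where 34.8% of all genes were called higher. ID2 held 322, 318 and 321 CPM, the highest in any group (log2 change 1.07, SE 0.04, edgeR adjusted p = 8.26e-27), and 1.15 (SE 0.05) against its own bottom dose. ID3 held 78.9, 78.0 and 77.8 CPM (log2 change 0.39) and was 0.29 higher than at the bottom dose. ID1 was already high at every Coptidis dose, at 207 ± 5.9, 213 ± 5.4 and 212 ± 6.1 CPM (n = 3) from 8.4 to 210 ug/mL, and the top and bottom dose differed by 0.04 (SE 0.07, adjusted p = 0.687). Zizyphi Fructus 20 ug/mL, the other extract with title number 4, was as high in ID1 (236, 206 and 211 CPM, log2 change 0.46, edgeR adjusted p = 0.0015). The part of the title number in these higher ID1 levels was not tested. Replicate 1, the highest of the Zizyphi Fructus 20 ug/mL libraries, stood apart from its group, and the call held without it (0.39, adjusted p = 0.0204). In a fit of that group and vehicle alone the change was 0.46 and missed the threshold (adjusted p = 0.0642).

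Wortmannin lowered ID1 (111, 110.2 and 117 CPM, log2 change -0.49, SE 0.07) and ID3 (43.9, 44.3 and 41.4 CPM, -0.47, SE 0.06), with edgeR adjusted p of 5.23e-07 and 2.1e-08, where 16% of all genes were called lower. For ID2 the libraries overlapped vehicle (log2 change -0.03, SE 0.05, adjusted p = 0.698). The difference between the ID genes under wortmannin was not tested. Wortmannin and vehicle share the title number, so this comparison does not cross it, but only the vehicle codes carry the letter A.

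SMAD6 and SMAD7 are the inhibitory SMADs, and SMAD9 encodes a receptor-activated SMAD that is itself a BMP target. SMAD6 lies on chromosome 15 (66702228 to 66782848), SMAD7 on chromosome 18 (48919853 to 48952052) and SMAD9 on chromosome 13 (36844831 to 36920765). SMAD6 overlaps AC013564.1 and SMAD9 overlaps SMAD9-IT1, intronic genes on the same strand. Vehicle levels were 13.1 ± 0.98 CPM for SMAD6, 21.8 ± 0.18 for SMAD7 and 24.6 ± 0.32 for SMAD9 (n = 3).

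All 3 fell under Scutellariae Radix 500 ug/mL, where 25.5% of all genes were called lower. SMAD9 held 7.16, 7.44 and 9.26 CPM (log2 change -1.63, SE 0.07, edgeR adjusted p = 6.58e-25), SMAD6 held 4.69, 5.99 and 6.16 CPM (-1.22, SE 0.09, adjusted p = 5.08e-16), and SMAD7 held 11.3, 12.4 and 10.8 CPM (-0.92, SE 0.06, adjusted p = 2.93e-19). SMAD9 was the one of the 3 that also fell at 100 ug/mL of that extract (log2 change -0.39, SE 0.06, edgeR adjusted p = 7.83e-06). No library of the top dose overlapped vehicle for any of the 3.

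Under the other extracts SMAD9 was the SMAD gene called most often: lower at the top dose of all 6 extracts and in 8 of the 19 comparisons with vehicle. At the top doses the share of all genes called lower was 34.5% (Coptidis Rhizoma), 25.5% (Scutellariae Radix), 22.5% (fresh ginger), 20.9% (dried ginger), 1.93% (Pinelliae Tuber) and 1.53% (Zizyphi Fructus). It was 23.5% at Coptidis Rhizoma 42 ug/mL and 7.36% at Scutellariae Radix 100 ug/mL, where SMAD9 was also called lower. At 500 ug/mL it held 16.4, 18.1 and 15.8 CPM under fresh ginger (log2 change -0.56) and 16.0, 15.8 and 15.4 CPM under dried ginger (-0.65). Under Zizyphi Fructus it held 20.0, 19.8 and 20.0 CPM (-0.31, edgeR adjusted p = 0.00236). The decrease under Coptidis Rhizoma 210 ug/mL (16.5, 15.0 and 17.3 CPM, log2 change -0.60, SE 0.07, adjusted p = 1.77e-11) went against the higher ID genes in the same libraries.

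SMAD6 and SMAD7 moved apart under Coptidis Rhizoma 210 ug/mL. SMAD7 held 41.2, 42.1 and 41.4 CPM, the highest of any group (log2 change 0.93, SE 0.05, edgeR adjusted p = 1.6e-22), whereas SMAD6 held 10.2, 11.2 and 11.1 CPM (-0.27, SE 0.08, adjusted p = 0.00351). Against the bottom Coptidis dose the changes were 0.95 for SMAD7 and -0.35 for SMAD6, both called. Between the gingers at 500 ug/mL, SMAD7 was higher under the fresh form (21.7, 24.6 and 22.0 against 18.4, 18.7 and 17.8 CPM, log2 difference 0.31, SE 0.05, adjusted p = 0.000245) and so was ID2 (0.19, adjusted p = 0.0205). These were the members called of 10 in that comparison, where 0.961% of all genes were called higher. The ID2 call ended without the dried-ginger library that stood apart (0.12, adjusted p = 0.357) and without any 1 of the 3 fresh-ginger libraries (adjusted p from 0.0676 to 0.082). In a fit of the 2 ginger groups alone 0 members were called.

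**Figure D2:**
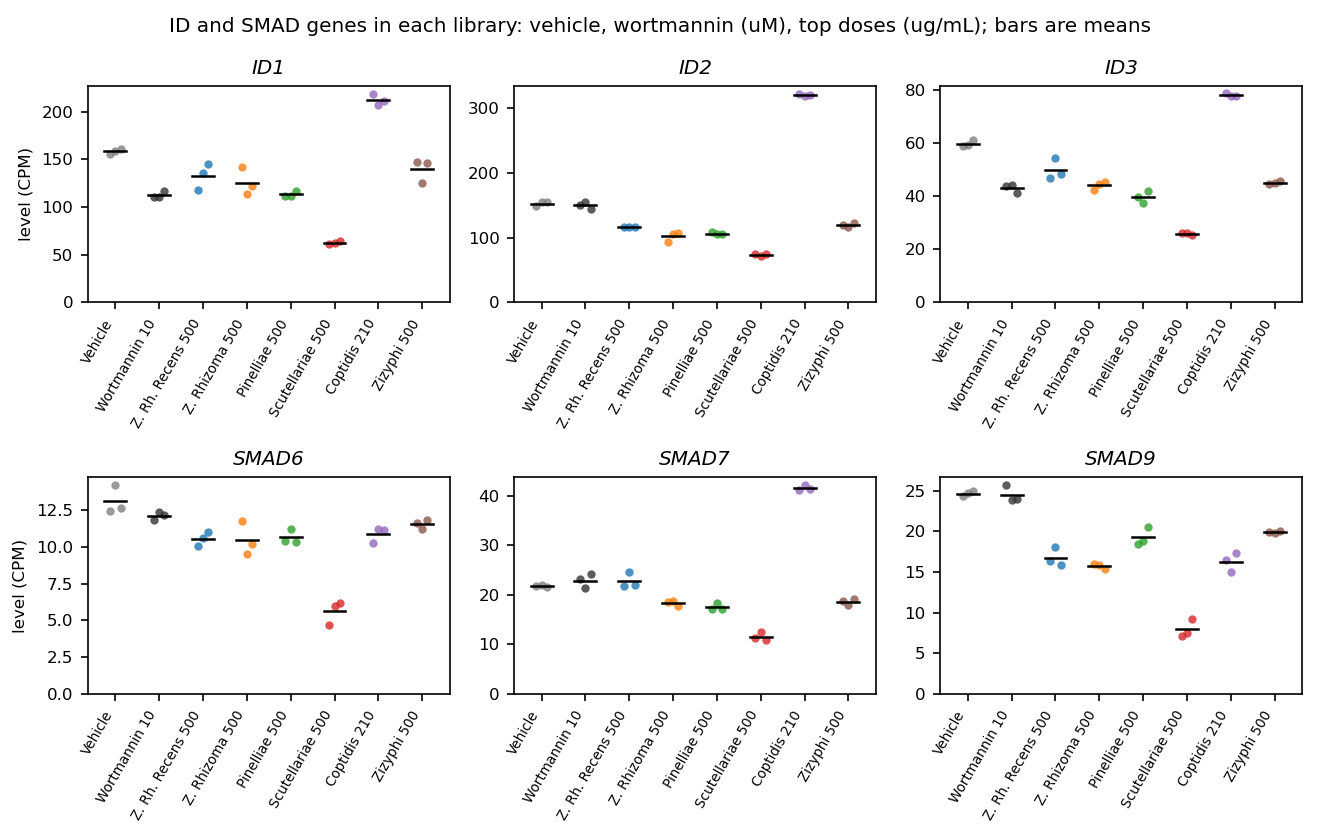
Level (CPM) of ID1, ID2, ID3, SMAD6, SMAD7 and SMAD9 in each library of vehicle, wortmannin (uM) and the top dose of each extract (ug/mL); points are libraries and bars are group means. Scutellariae Radix 500 ug/mL holds the lowest libraries in all 6 panels, and Coptidis Rhizoma 210 ug/mL the highest mean in ID1 to ID3 and SMAD7 among the groups drawn but not in SMAD6 or SMAD9.

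BAMBI, on chromosome 10 (28677342 to 28682939), encodes a receptor-like protein without a kinase domain that damps BMP and TGF-beta signals. It varied least of the 10 genes, between 13.2 and 23.7 CPM over 59 libraries, 1.80-fold from lowest to highest. It stood at 17.1 ± 0.79 CPM in vehicle (n = 3), and wortmannin lowered it to 13.5, 14.7 and 13.9 CPM (log2 change -0.29, edgeR adjusted p = 0.000999). Under Scutellariae Radix 500 ug/mL it held 14.4, 16.0 and 16.0 CPM (-0.15, SE 0.07, adjusted p = 0.0751). All Coptidis Rhizoma doses were above vehicle (20.4, 22.7 and 21.3 CPM on average from 8.4 to 210 ug/mL, all called), and the top and bottom dose differed by 0.06 (SE 0.07, adjusted p = 0.406). The call at 8.4 ug/mL ended without replicate 2 of vehicle (log2 change 0.21, adjusted p = 0.0637). As for ID1, the part of the title number was not tested.

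ATOH8, on chromosome 2 (85751344 to 85788066), encodes a helix-loop-helix factor known to promote HAMP transcription. It was low, with 26, 34 and 26 counts in the vehicle libraries (1.11 ± 0.16 CPM, n = 3), so its errors were large. Coptidis Rhizoma 210 ug/mL held 196, 198 and 209 counts (7.38, 7.81 and 8.45 CPM, log2 change 2.82, SE 0.18, edgeR adjusted p = 9.85e-20), above every other library. At 42 ug/mL the level was 2.03 ± 0.19 CPM (n = 3, log2 change 0.87), and at 8.4 ug/mL it was 1.33 ± 0.28 CPM (n = 3) and overlapped vehicle. ATOH8 overlaps the miRNA gene MIR6071 on the other strand.

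ATOH8 was called lower in Scutellariae Radix 500 ug/mL, with 12, 14 and 8 counts (log2 change -1.26, SE 0.27, edgeR adjusted p = 0.000112), and in Pinelliae Tuber 500 ug/mL, with 13, 7 and 21 counts (-1.12, SE 0.26, adjusted p = 0.00689). At 100 ug/mL of Scutellariae Radix it was higher than in vehicle (49, 42 and 53 counts, 0.73, SE 0.21, adjusted p = 0.011), so along that dose series it lay above vehicle and then below it. That call ended without replicate 1 of vehicle (0.66, adjusted p = 0.0611) or replicate 3 of the extract (0.64, adjusted p = 0.0687). The call in fresh ginger 100 ug/mL (log2 change 0.65, adjusted p = 0.0197) ended without replicate 1 of vehicle (adjusted p = 0.0869), its replicate 3 (0.0708), or replicate 2 (0.0555) or 3 (0.207) of the extract. The Pinelliae Tuber call ended without replicate 2 of vehicle (adjusted p = 0.0655), and it held in 9 of the 11 alternatives with an adjusted p.

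BMP6, on chromosome 6 (7726797 to 7881422), encodes the ligand that signals body iron to hepatocytes. HepG2 held almost none: the vehicle libraries had 1, 5 and 0 counts. The gene passed the filter on low counts through 8 libraries of 4 groups, so it was tested only because some libraries held enough counts. It also passed with Scutellariae Radix 500 ug/mL and Coptidis Rhizoma 210 ug/mL left out. Coptidis Rhizoma 210 ug/mL held 69, 82 and 62 counts, 35.8 times the summed vehicle level at equal depth (95% interval 16.2 to 98.6, exact binomial, counting error only). Scutellariae Radix 500 ug/mL held 15, 22 and 18 counts, 9.60 times vehicle (95% interval 4.14 to 27.3). Both were called (log2 changes 5.08 and 3.19, edgeR adjusted p = 9.97e-14 and 3.49e-06) and called against the bottom dose of the same extract (3.83 and 2.80).

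The remaining BMP6 calls, in fresh ginger 500 ug/mL (5, 3 and 11 counts) and Coptidis Rhizoma 42 ug/mL (9, 3 and 10 counts), overlapped vehicle. The first (log2 change 1.70, edgeR adjusted p = 0.037) ended without replicate 1 of vehicle (1.38, adjusted p = 0.134), its replicate 3 (1.15, 0.18) or replicate 3 of the extract (1.13, 0.283). The second (1.84, adjusted p = 0.0187) ended without replicate 1 or 3 of vehicle (adjusted p = 0.0835 and 0.114) or replicate 1 or 3 of the extract (1.70 and 1.55, adjusted p = 0.0613 and 0.0933). Even at its highest BMP6 stood at 1.16 CPM per kilobase, below the 37.1 of BMP4 in vehicle. BMP6 was higher in Scutellariae Radix 500 ug/mL, where HAMP was lowest, and in Coptidis Rhizoma 210 ug/mL, where HAMP overlapped vehicle.

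**Figure D3:**
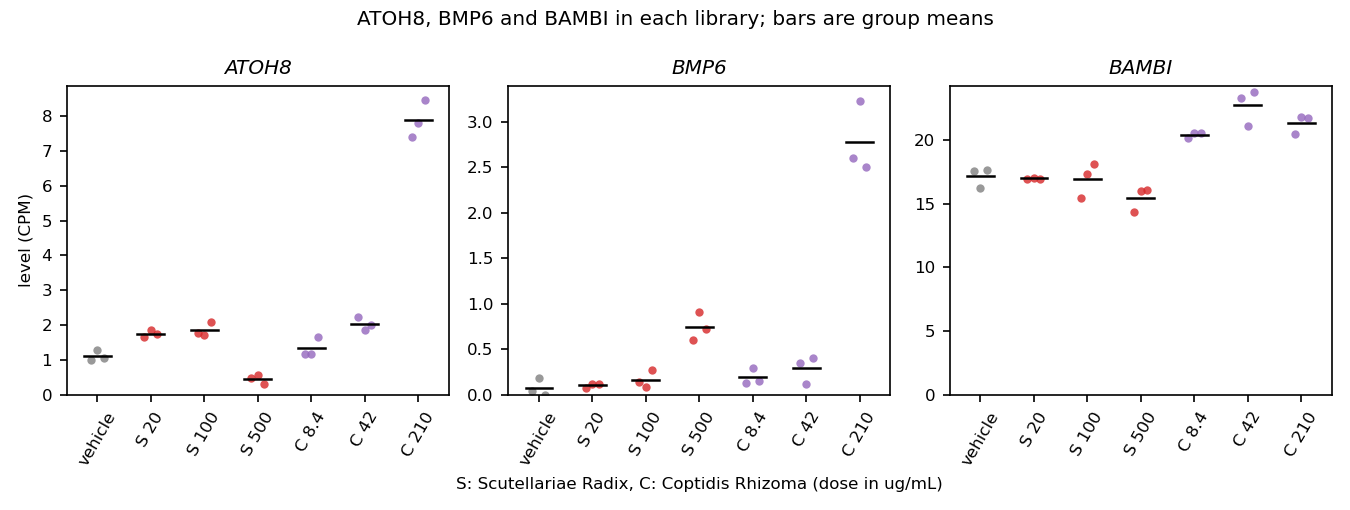
Level (CPM) of ATOH8, BMP6 and BAMBI in each library of vehicle and of the 3 doses of Scutellariae Radix (S) and Coptidis Rhizoma (C) in ug/mL; points are libraries and bars are group means. ATOH8 and BMP6 stand highest at Coptidis Rhizoma 210 ug/mL (means 7.88 and 2.78 CPM), while the BAMBI means lie between 15.4 and 22.7 CPM in all 7 groups.

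Counted by comparison, the members are read here against the share of all genes called. Pinelliae Tuber 500 ug/mL lowered 9 of 10 members (all but BMP6) where 1.93% of all genes were called lower. The members' median log2 change was -0.42, and that of all genes tested was 0.01. Against its bottom dose 8 of 10 were lower with 0.703% of all genes called lower; SMAD6, SMAD9 and ATOH8 each lost that call without at least 1 single library. The bottom dose holds 2 libraries, so leaving out either leaves a single library that is assumed to vary like the other groups. The count was 5 without replicate 1 of the bottom dose, 6 without its replicate 3 or replicate 1 of the top dose, and 7 without replicate 2 of the top dose. The calls of SMAD6, BAMBI and ATOH8 against vehicle were the least secure: SMAD6 gave an adjusted p of 0.209 without replicate 2 of vehicle, 0.1 without replicate 1 and 0.147 without replicate 3 of the extract. BAMBI (-0.23, adjusted p = 0.0472) ended without any 1 of the vehicle libraries (adjusted p from 0.0558 to 0.157) and without replicate 1 (0.228) or 3 (0.0822) of the extract. Over all 12 alternatives, single-library omissions included, BAMBI was called in 5. Zizyphi Fructus 500 ug/mL lowered 5 of 10 (HAMP, ID2, ID3, SMAD7 and SMAD9) where 1.53% of all genes were called lower. The SMAD7 call ended without replicate 2 of the extract (-0.21, adjusted p = 0.0524).

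Against its bottom dose Zizyphi Fructus 500 ug/mL lowered 7 of 10, where 2.82% of all genes were called lower; this count was 2 (HAMP and ID3) in a fit of those 2 groups alone and 8, with SMAD6, without the 3 libraries that stood apart. SMAD9 (-0.20, adjusted p = 0.0475) lost its call without any 1 of the extract's top-dose libraries (adjusted p from 0.0934 to 0.139) and without replicate 2 (0.108) or 3 (0.199) of the bottom dose, and BAMBI without replicate 2 of the top dose (0.125).

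The other top doses changed a large share of all genes. BMP6 is counted among the genes raised in Scutellariae Radix, fresh ginger and Coptidis Rhizoma (210 and 42 ug/mL). It was tested only because some libraries held enough counts. Scutellariae Radix 500 ug/mL lowered 8 of 10 members and raised 1, where 25.5% and 24.7% of all genes were called lower and higher. The members' median log2 change was -1.22 against 0.01 over all genes. Against its bottom dose 8 were lower (25.4% of all genes) and 1 higher (24.5%). Fresh ginger 500 ug/mL lowered 6 and raised 1 (22.5% and 23.6% of all genes), and lowered 7 against its bottom dose (23.6%). The SMAD7 call there ended without replicate 1 of the top dose (-0.13, adjusted p = 0.0627). Dried ginger 500 ug/mL lowered 7 (20.9%), and against its bottom dose lowered 7 (20.1%) and raised BAMBI (20.9%), a call that ended without replicate 1 of the bottom dose (0.18, adjusted p = 0.0655). Wortmannin lowered 4 (HAMP, ID1, ID3 and BAMBI) where 16% of all genes were called lower.

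Coptidis Rhizoma 210 ug/mL raised 7 members and lowered 2 (SMAD6 and SMAD9), where 34.8% of all genes were called higher and 34.5% lower. Against its bottom dose it raised 6 (32.9% of all genes) and lowered 2 (32.8%). The 42 ug/mL dose raised 5 (23.4%) and lowered 2 (23.5%), and the 8.4 ug/mL dose raised 2 (8.58%) and lowered HAMP (7.39%).

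At the other middle and bottom doses few members were called. Pinelliae Tuber 100 ug/mL lowered HAMP alone, among 0.12% of all genes, and also ID2 (-0.25, adjusted p = 0.00746) without replicate 3, which stood apart. Scutellariae Radix 100 ug/mL lowered 3 (7.36% of all genes) and raised 1 (7.28%), and the ID2 call there (-0.17) ended without replicate 1 of the extract (adjusted p = 0.0543). Fresh ginger 100 ug/mL lowered HAMP (10.2%) and raised ATOH8 (12.1%), and its 20 ug/mL dose raised SMAD7 (2.75%, log2 change 0.22), a call that ended without replicate 1 of vehicle (adjusted p = 0.0512) or replicate 3 of the extract (0.078). Dried ginger 100 ug/mL lowered HAMP and ID2 (7.75%), the latter not without replicate 1 of the extract (-0.13, adjusted p = 0.0779). Zizyphi Fructus 20 ug/mL raised ID1 (1.23%).

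The edgeR fit called 0 of 10 members at dried ginger 20 ug/mL, where 0.0841% of all genes were called in either direction, with 0 at an unadjusted p under 0.05 and 0 by DESeq2. It called 0 at Pinelliae Tuber 20 ug/mL (0.00601% of all genes), with 1 higher and 1 lower at an unadjusted p under 0.05 and 0 by DESeq2. At Scutellariae Radix 20 ug/mL (4.75%) it called 0, with 5 higher and 1 lower unadjusted and 0 by DESeq2. At Zizyphi Fructus 100 ug/mL (0.294%) it called 0, with 2 higher and 2 lower unadjusted and 1 by DESeq2.

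**Figure D4:**
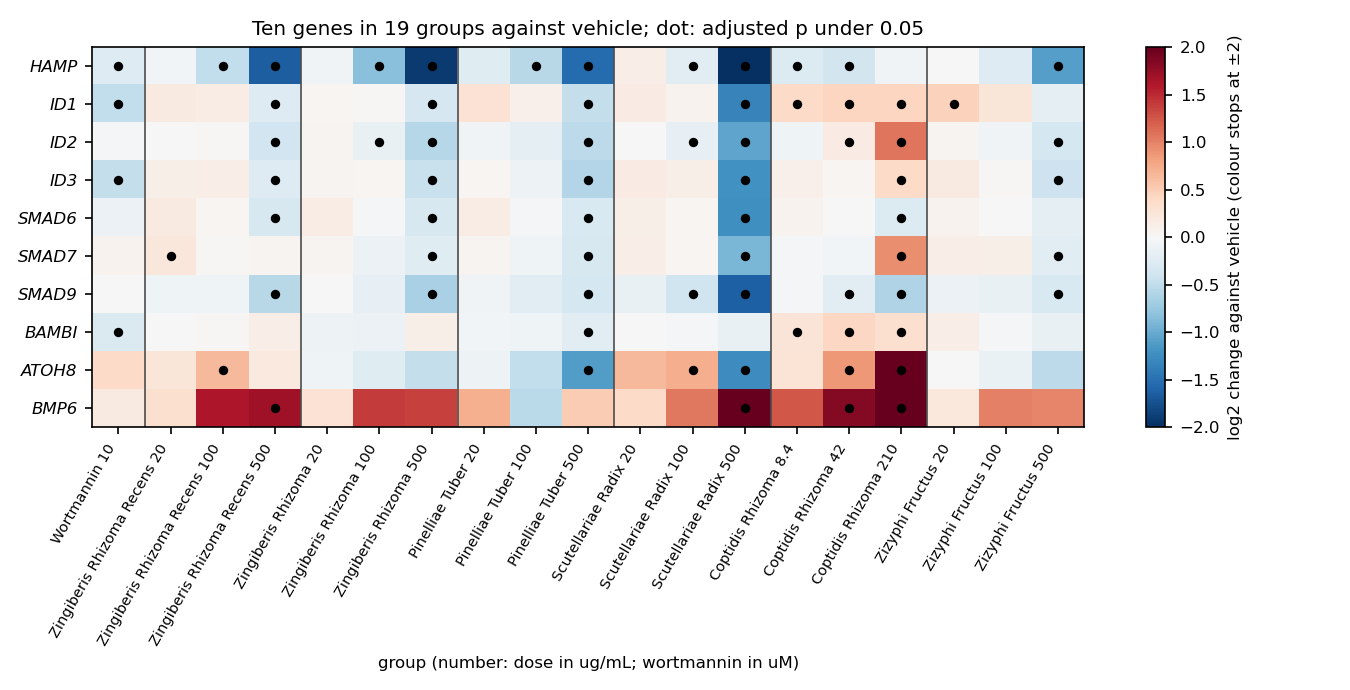
Log2 change against vehicle of the 10 genes (rows) in 19 groups (columns, dose in ug/mL, wortmannin in uM); dots mark an edgeR adjusted p under 0.05 and the colours stop at 2 in either direction. HAMP is called lower in 12 columns, ID1 to SMAD9 are mostly lower at the 500 ug/mL doses, and Coptidis Rhizoma 210 ug/mL stands out with higher ID genes, SMAD7, ATOH8 and BMP6.

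The rest of the pathway was read from lists chosen with earlier results of these data known. Of 13 ligands 7 were tested. BMP4 was the most abundant BMP ligand of the list in vehicle, at 37.1 ± 0.38 CPM per kilobase (n = 3), whereas BMP2, BMP7 and GDF2 were at 0 there. BMP4 fell under Coptidis Rhizoma 210 ug/mL (log2 change -0.47, SE 0.04) and wortmannin (-0.11, SE 0.03), and under Scutellariae Radix 500 ug/mL it was at 0.04 (SE 0.03) without a call. TGFB1, the ligand of the sister pathway through SMAD2 and SMAD3, was called higher at the top doses of both gingers (1.02 and 0.94), Scutellariae Radix (0.74) and Coptidis Rhizoma (1.86).

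Of 11 receptors and co-receptors 10 were tested. ACVR1, a type I BMP receptor, was called higher with both gingers at 500 ug/mL (0.89 and 0.70), Scutellariae Radix (0.86), Coptidis Rhizoma (1.52) and wortmannin (0.24). BMPR1A, a further type I BMP receptor, was called lower with both gingers (-0.18 and -0.13), Scutellariae Radix (-0.39) and Coptidis Rhizoma (-0.25). Under Pinelliae Tuber 500 ug/mL 1 of 10 was higher (TGFBR2) and 1 lower (TGFBR1), where 2.64% and 1.93% of all genes were called higher and lower. Under Zizyphi Fructus 500 ug/mL 1 was higher (TGFBR2), where 2.09% of all genes were. The signal carriers SMAD1, SMAD5 and SMAD4 had log2 changes between -0.38 (SMAD1, Scutellariae Radix) and 0.18 (SMAD4, Coptidis Rhizoma) at the top doses. For Pinelliae Tuber and Zizyphi Fructus 0 of 5 SMADs of the list were called by edgeR and 0 by DESeq2, with 2 and 1 lower at an unadjusted p under 0.05. Of all genes 1.93% and 1.53% were called lower there and 2.64% and 2.09% higher, so a count of 0 is near these shares.

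Of 6 genes that sense or modulate iron at the hepatocyte surface 5 were tested. HJV was near 0, at 0.03 ± 0.04 CPM per kilobase in vehicle (n = 3), and was not tested. TFR2, transferrin receptor 2, stood at 32.7 ± 0.86 CPM in vehicle and 55.5 ± 2.1 under wortmannin (n = 3, log2 change 0.76, SE 0.05), where HAMP was lower. It fell under Coptidis Rhizoma 210 ug/mL (-1.13, SE 0.06), fresh ginger (-0.53), dried ginger (-0.38) and Scutellariae Radix (-0.33). TMPRSS6, the protease that cleaves hemojuvelin and so restrains HAMP, was low, at 4.36 ± 0.08 CPM in vehicle (n = 3). It fell under both gingers (-0.86 and -0.89), Scutellariae Radix (-1.42) and Coptidis Rhizoma (-1.66) and rose under wortmannin (0.63). Under Pinelliae Tuber and Zizyphi Fructus 500 ug/mL 0 of 5 were lower by edgeR and DESeq2, with 0 at an unadjusted p under 0.05. Of all genes 1.93% and 1.53% were called lower there, so a count of 0 is near these shares.

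Of 16 extracellular and intracellular inhibitors 12 were tested. FST, follistatin, which binds activins and some BMPs, was higher with both gingers (1.53 and 1.33), Coptidis Rhizoma (1.25), wortmannin (0.96), Scutellariae Radix (0.78) and Pinelliae Tuber (0.22). The ubiquitin ligases SMURF1 and SMURF2, which mark receptor SMADs for degradation, were higher at the top doses of both gingers, Scutellariae Radix and Coptidis Rhizoma, from 0.33 to 1.52. In total 8 of 12 were higher and 2 lower under fresh ginger (23.6% and 22.5% of all genes), and 6 and 0 under dried ginger (21.5% and 20.9%). The counts were 5 and 2 under Scutellariae Radix (24.7% and 25.5%) and 8 and 2 under Coptidis Rhizoma (34.8% and 34.5%). Pinelliae Tuber raised 3 (FST, FSTL3 and TOB1; 2.64% of all genes) and lowered 1 (SKIL; 1.93%).

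Of 9 other regulators of the HAMP promoter all were tested. STAT3 itself lay between -0.16 and 0.09. SOCS3, its feedback target, was low in vehicle (0.32 ± 0.03 CPM, n = 3) and higher with both gingers (1.71 and 1.88), Scutellariae Radix (1.67) and Coptidis Rhizoma (3.44). The vehicle mean lay below the cut of the filter (0.387 CPM), so SOCS3 was tested only because libraries of other groups held enough counts. CEBPA, a liver transcription factor that binds the HAMP promoter, fell under those 4 (-1.15, -0.96, -1.66 and -1.98). Under Pinelliae Tuber 500 ug/mL 0 of 9 were called by edgeR or DESeq2, with 2 higher at an unadjusted p under 0.05. Of all genes 2.64% were called higher and 1.93% lower there, so a count of 0 is near these shares.

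Hepatocyte markers were lower under some extracts. Of 9 markers (ALB, AFP, APOA1, APOB, TTR, SERPINA1, TF, FGB and HNF4A), 9 were lower under Scutellariae Radix 500 ug/mL (25.5% of all genes), 8 under Coptidis Rhizoma 210 ug/mL (34.5%) and 6 under each ginger at 500 ug/mL (22.5% for the fresh and 20.9% for the dried form). Their median log2 changes were -0.58, -0.84, -0.26 (fresh) and -0.24 (dried). Their part in the HAMP levels was not tested under any extract. Under Pinelliae Tuber and Zizyphi Fructus 500 ug/mL, where 1.93% and 1.53% of all genes were called lower, 0 of 9 were lower by edgeR and DESeq2, with 0 at an unadjusted p under 0.05. A count of 0 is near these shares. There, 1 of 9 (FGB) was higher, where 2.64% and 2.09% of all genes were, and the medians were 0.05 and 0.00. Under wortmannin 6 of 9 were higher, where 16.2% of all genes were.

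**Figure D5:**
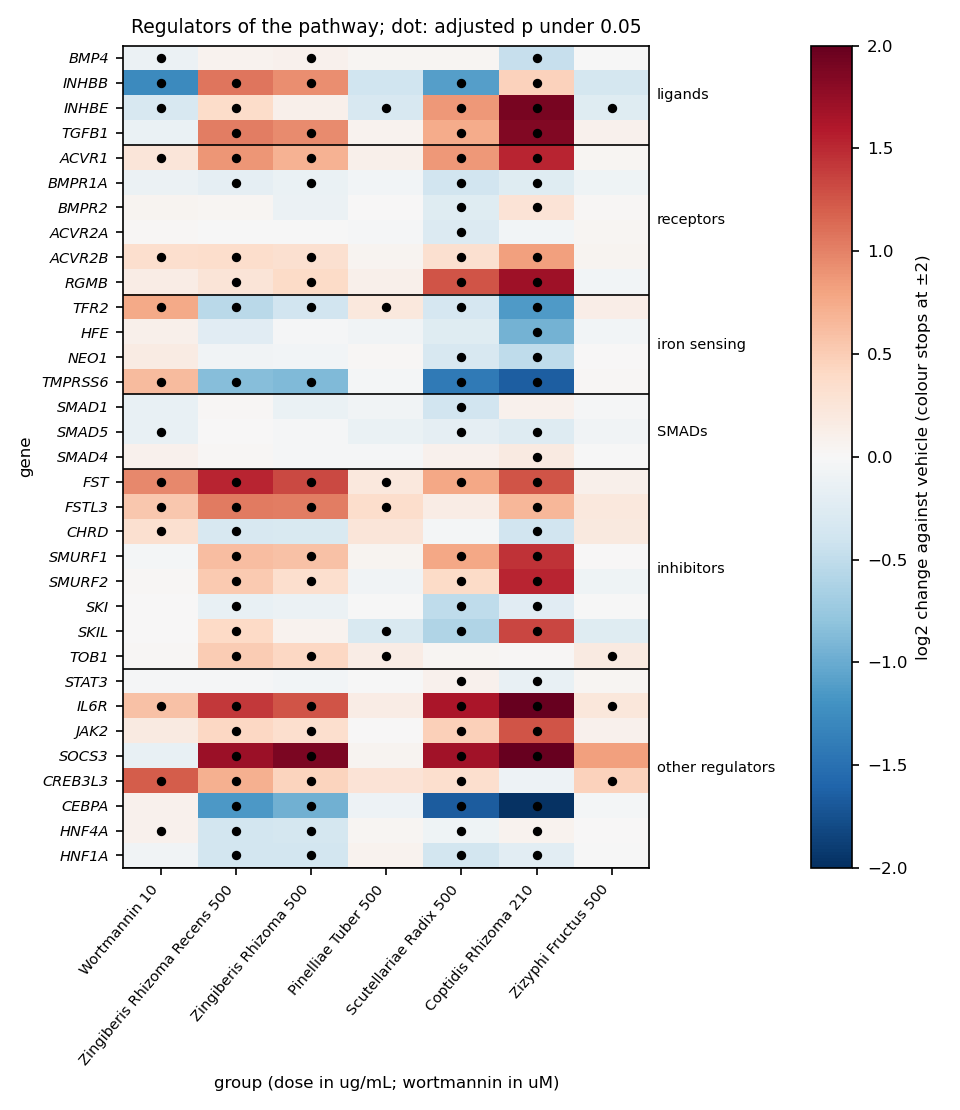
Log2 change against vehicle of other genes of the pathway (rows, grouped by role) under wortmannin (uM) and the top dose of each extract (ug/mL); dots mark an edgeR adjusted p under 0.05 and the colours stop at 2 in either direction. The columns of Pinelliae Tuber and Zizyphi Fructus are pale with few dots, while both gingers, Scutellariae Radix and Coptidis Rhizoma share higher ACVR1, SMURF1, IL6R and SOCS3 and lower TMPRSS6 and CEBPA.

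Across the 20 group means of log2 CPM the members were compared in pairs, as a description: all points share their libraries' depth and most of the spread comes from a few top doses. Pearson's r was highest for ID1 with ID3 (0.949), SMAD6 with SMAD9 (0.945) and ID2 with SMAD7 (0.936), with Spearman's rho of 0.812, 0.723 and 0.684. Without the top doses of Scutellariae Radix and Coptidis Rhizoma these r were 0.886, 0.768 and 0.724, and the highest were HAMP with SMAD6 (0.912) and with ID2 (0.904, from 0.785 over all groups). HAMP followed SMAD6 most closely by Pearson's r (0.911), whereas by rho SMAD7 (0.764) and ID2 (0.758) stood above SMAD6 (0.734). By rho ID2 was closer to ID3 (0.767) than to SMAD7. ID1 and SMAD9 went from an r of 0.714 to 0.451 without those top doses. HAMP and BAMBI were at 0.231, and HAMP and BMP6 at -0.313.

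Among 16415 tested genes with a symbol, the 10 members left out, those whose group means followed HAMP most closely over the 20 groups were SEMA3B (r = 0.900), CDKN1B (0.892), SCNN1A (0.882), KIF7 (0.877) and ID4 (0.870), the last a further member of the ID family outside the 10 genes. Those that ran most against it were AK1 (-0.838), PINK1-AS (-0.834) and ENTPD6 (-0.834). By Spearman's rho 0 of the 5 stayed among the closest 5, and without the top doses of Scutellariae Radix and Coptidis Rhizoma 2 did (KIF7 and ID4). For ID1 the closest outside the members were FRAT2 (r = 0.905), SAMD1 (0.901), NFE2L2 (0.883), NKD1 (0.883) and RAB6A (0.880), and the most opposed RETSAT (-0.851), SP140L (-0.833) and ITIH5 (-0.832). By Spearman's rho 1 of those 5 stayed (SAMD1), and 0 without the pair of top doses.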

How the data were processed

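The authors deposited 1 table of estimated counts per gene, for which the submitters' processing notes list, with no roles or order, RSEM 1.3.3, STAR 2.7.3a, Trim Galore 0.6.5, FastQC 0.11.9 and GRCh38. The library kit marks strand, per the labels' protocols; how the counting used strand is not given in the sources used here. Among the table's 267 columns 59 matched the libraries by name, and 208 were not used. Of the nonzero values 24.44% were not whole, and all were rounded before fitting. Symbols were matched to 56558 of 60675 identifiers, and gene coordinates, overlaps and exon lengths came from GENCODE 29.

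Genes passed edgeR's filterByExpr (10 counts). TMM-scaled counts were fitted by edgeR 4.0.16 with limma 3.58.1 in R 4.3.3 (quasi-likelihood, 20 group means, 39 residual degrees of freedom, BCV 4.41%), and p-values were two-sided and adjusted by Benjamini-Hochberg over 16641 genes within each of 26 comparisons: 19 with vehicle, 6 of top with bottom dose, and fresh with dried ginger. Pattern correlations used log2 CPM with a prior count of 2. Total counts of 21582593 to 31392071 per library set the precision; intervals cover counting error only. The script was tested on simulated data. Named genes were all 10 members, pathway genes called with a log2 change of at least 0.5 at a top dose or under wortmannin or needed for their role, and the 5 closest and 3 most opposed pattern genes outside the members. The promoter sequence of HAMP is not reported here. The members and lists were chosen with earlier results of these data known. Alternatives were RLE scaling, DESeq2 1.42.0, no filter, only the groups compared, a replicate block, the 3 libraries that stood apart left out, and each library left out. No set test was made.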

Additional observations from a re-analysis of the deposited data

How the results depend on the processing

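No change of a member turned direction under any alternative where the change or its alternative was called. RLE scaling kept all 260 member values on their side of the threshold, the replicate block 256 of 260, omission of the 3 libraries that stood apart 249 of 260, no filter 245 of 260, DESeq2 229 of the 233 with an adjusted p, the groups compared alone 216 of 238, and single-library omission 1477 of 1540. Over all pairs of libraries from different groups, deviations from group means correlated at a median of 0.004 for the same replicate number (-0.237 to 0.116). For different replicate numbers the median was -0.002. These pairs were pooled over all title numbers, and pairing by replicate number within a title number was not tested. With the replicate block the members called went from 1 to 2 for Pinelliae Tuber 100 ug/mL and from 0 to 1 for Scutellariae Radix 20 ug/mL.

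Against vehicle, the number called without the filter was 2 for fresh ginger 20, Pinelliae Tuber 100 and 20, Scutellariae Radix 20, and Zizyphi Fructus 100 and 20 ug/mL. Without the 3 libraries it was 2 for fresh ginger 20, Pinelliae Tuber 100 and Zizyphi Fructus 100 ug/mL and 1 for Pinelliae Tuber 20 and Scutellariae Radix 20 ug/mL. From the groups compared alone it was 4 for fresh ginger 100, 2 for fresh ginger 20, Pinelliae Tuber 20 and Zizyphi Fructus 100, 1 for Scutellariae Radix 20 and 0 for Zizyphi Fructus 20 ug/mL, and it was 2 for Zizyphi Fructus 500 against 20 ug/mL and 0 between the gingers. DESeq2 called 2 for Pinelliae Tuber 100 and 1 for Zizyphi Fructus 100 ug/mL. The cause was not tested. Leaving out single libraries gave counts against vehicle of 1 to 3 for fresh ginger 100, 0 to 2 for fresh ginger 20, 1 to 3 for dried ginger 100, 1 to 2 for Pinelliae Tuber 100, 2 to 4 for Scutellariae Radix 100 and 1 to 2 for Zizyphi Fructus 20 ug/mL. It gave 5 to 8 for Pinelliae Tuber 500 against 20 ug/mL and 1 to 2 between the gingers. Of the 5 genes closest to HAMP, 0 stayed by Spearman and 2 without the top doses of Scutellariae Radix and Coptidis Rhizoma; of those closest to ID1, 1 and 0.

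Limits: groups held 2 or 3 libraries of 1 cell line, and BMP6 and ATOH8 rest on few counts. Extract, title number and any difference in DMSO cannot be told apart against vehicle.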
